A study of Mus musculus with 15 samples.

Results

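Microglia of mice given ATV:4D9 were compared with microglia of mice given ATV:RSV 1 day after a single dose, over the whole transcriptome. All cells of the 3 ATV:4D9 mice and the 3 ATV:RSV mice sampled at day 1 were taken, which gave 40760 of the 102043 cells of the series, and the unique molecular identifiers (UMIs) of each gene were added up across all cells of a mouse. ATV:4D9 is an antibody against mouse TREM2 whose Fc part (the antibody transport vehicle, ATV) binds the apical domain of the human transferrin receptor, and ATV:RSV is a control antibody, against a viral protein, on the same vehicle. Both carry Fc mutations that weaken binding to Fc receptors. Both groups were male C57BL/6J mice aged 3.5 months with the hTfR KI allele, in which a human transferrin receptor sequence was knocked into the mouse locus because the vehicle does not bind the mouse receptor, and both received 10 mg/kg once. Each of 3 processing batches held 1 mouse of each group, and replicate numbers here are batch numbers. Cells of the cortex and hippocampus were dissociated with enzymes and pulled down with CD45 beads, so the control mice carried the same allele, vehicle, dose and dissociation as the treated mice.

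The 6 libraries held 5998 to 7343 cells a mouse. They held 38985589 to 46425480 UMIs a mouse in ATV:RSV and 53244126 to 70307384 in ATV:4D9. Values below are CPM, the counts of a gene per 1000000 UMIs of a mouse, after TMM scaling (a trimmed mean of the log ratios between libraries). A value is thus relative to the TMM scale, which departs from the plain share of UMIs, and is not an amount per cell. The microglia markers P2ry12, Tmem119, Cx3cr1, Csf1r and Trem2 were clearly detected in all 6 mice, and the lowest value among them was the 788 CPM of P2ry12 in replicate 2 of ATV:4D9. The T cell genes Cd3e, Cd3d and Cd3g were each at or below 0.235 CPM in all 6 mice. In 2 libraries of ATV:RSV the hemoglobin genes were higher than in the others, with Hbb-bs at 222, 5.62 and 128 CPM in the ATV:RSV mice and 1.48, 23.2 and 5.2 CPM in the ATV:4D9 mice, and Ttr, a choroid plexus gene, was at 20.1, 0 and 221 CPM in the ATV:RSV mice and 25.2, 0.539 and 21.9 CPM in the ATV:4D9 mice. Il7r, which lymphocytes express, was at 35.1, 47.6 and 37.3 CPM in the ATV:RSV mice and 14.7, 15 and 12.1 CPM in the ATV:4D9 mice, and Igkc, an antibody gene, stood apart in replicate 1 of ATV:4D9 at 17.8 CPM against at most 1.53 in the other mice. Of 8 neuron markers 7 were lower in ATV:4D9, where they summed to 9.62 to 14.1 CPM against 15.6 to 22.2 CPM in ATV:RSV. Of 7 oligodendrocyte markers 6 were lower and 1 higher, with sums of 73.3 to 83.3 against 84.0 to 102 CPM, and 8 astrocyte markers summed to 129 to 139 against 209 to 257 CPM with 1 lower. The astrocyte sum rested mostly on Slc1a3, at 119, 122 and 130 CPM in the ATV:4D9 mice against 223, 199 and 246 CPM in the ATV:RSV mice, and fell with it. Cells with UMIs of at least 3 markers of another type made up 1.81 to 3.55% of a mouse. Without those cells 9820 genes were called in place of 9872, and 9710 of the 9834 calls that could still be tested kept their direction. The part of free RNA in any result was not tested, and in summed libraries more cells of a type and more RNA per cell cannot be told apart.

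TREM2 is a lipid receptor of microglia that signals through the adaptor TYROBP and the kinase SYK. Type I interferon binds its receptor on the cell surface, activates the kinases JAK1 and TYK2, and moves a complex of STAT proteins and IRF9 to the interferon-stimulated response element (ISRE) of its target genes. Entry into the cell cycle releases E2F factors from retinoblastoma proteins and turns on genes for DNA replication, many of which carry E2F sites, while genes for mitosis often carry a cell cycle genes homology region (CHR). The promoters of genes from the interferon effector, chemokine, replication and mitosis lists are shown first, because these lists are among the 5 with the highest median change.

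The sequences are the bases before the RefSeq start of each gene in GRCm38.p6, written 5′ to 3′ on the strand of the gene. For Isg15 (chr4:156200819-156201068, minus strand), Ifit3 (chr19:34583279-34583528, plus strand) and Cxcl10 (chr5:92348890-92349139, minus strand) capitals mark matches to the ISRE core GAAANNGAA on either strand.
Isg15: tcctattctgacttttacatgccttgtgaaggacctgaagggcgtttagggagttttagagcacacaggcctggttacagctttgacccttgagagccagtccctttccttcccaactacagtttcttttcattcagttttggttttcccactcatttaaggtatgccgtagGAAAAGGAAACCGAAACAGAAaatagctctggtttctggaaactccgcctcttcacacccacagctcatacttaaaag
Ifit3: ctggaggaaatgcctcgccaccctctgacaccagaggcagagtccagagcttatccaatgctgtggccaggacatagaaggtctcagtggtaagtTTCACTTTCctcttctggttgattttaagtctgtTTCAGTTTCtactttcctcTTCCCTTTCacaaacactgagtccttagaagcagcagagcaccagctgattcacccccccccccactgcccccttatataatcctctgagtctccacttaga
Cxcl10: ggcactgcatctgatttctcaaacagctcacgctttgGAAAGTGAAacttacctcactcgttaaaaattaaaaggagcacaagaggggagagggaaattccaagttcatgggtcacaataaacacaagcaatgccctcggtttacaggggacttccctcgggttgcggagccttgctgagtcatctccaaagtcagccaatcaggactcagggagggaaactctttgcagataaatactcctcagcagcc
For the helicase genes Mcm6 (chr1:128359706-128359955, minus strand) and Mcm5 (chr8:75109259-75109508, plus strand) capitals mark matches to the E2F forms TTTCCCGC and TTTGGCGC on either strand.
Mcm6: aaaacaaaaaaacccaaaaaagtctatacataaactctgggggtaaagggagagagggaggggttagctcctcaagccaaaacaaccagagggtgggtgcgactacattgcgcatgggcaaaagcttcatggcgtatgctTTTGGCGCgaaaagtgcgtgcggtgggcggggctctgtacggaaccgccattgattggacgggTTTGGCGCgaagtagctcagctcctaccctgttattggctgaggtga
Mcm5: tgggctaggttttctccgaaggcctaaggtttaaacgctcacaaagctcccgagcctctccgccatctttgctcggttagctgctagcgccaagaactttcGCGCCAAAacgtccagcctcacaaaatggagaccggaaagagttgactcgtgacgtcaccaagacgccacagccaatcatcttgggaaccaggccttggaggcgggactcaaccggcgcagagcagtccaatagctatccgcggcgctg
For Top2a (chr11:99024190-99024439, minus strand), a topoisomerase, and Mki67 (chr7:135716380-135716629, minus strand), a coat protein of mitotic chromosomes, capitals mark matches to the CHR core TTTGAA on either strand.
Top2a: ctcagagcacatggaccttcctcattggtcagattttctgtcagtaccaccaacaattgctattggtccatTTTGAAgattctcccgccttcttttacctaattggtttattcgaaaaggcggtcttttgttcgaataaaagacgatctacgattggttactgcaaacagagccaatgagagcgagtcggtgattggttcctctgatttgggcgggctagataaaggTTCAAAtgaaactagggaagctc
Mki67: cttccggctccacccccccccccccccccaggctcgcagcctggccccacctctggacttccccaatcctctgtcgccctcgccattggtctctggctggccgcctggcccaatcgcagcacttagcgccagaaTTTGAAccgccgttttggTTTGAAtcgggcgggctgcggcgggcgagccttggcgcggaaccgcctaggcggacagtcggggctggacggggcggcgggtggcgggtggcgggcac

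The Isg15 promoter held 3 overlapping ISRE matches, the first of them 78 bases before the start, and the Ifit3 promoter held 3 separate ones at 155, 121 and 102 bases. Cxcl10, of the chemokine list, had 1 match at 213 bases, Mcm6 had 2 at 110 and 47 bases, and Mcm5 had 1 at 149 bases. An ISRE match was found in 24 of 58 (41.4%) promoters of the type I interferon effectors, against 670 of 10636 (6.3%) of all genes tested and 7.16% of all promoters of the same length in the table. E2F matches stood in 5 of 12 (41.7%) promoters of the genes for origin licensing and helicase, in 6 of 38 (15.8%) of the whole DNA replication list and in 280 of 10636 (2.63%) of the genes tested (1.35% of all promoters). CHR matches stood in 21 of 55 (38.2%) promoters of the mitosis list and 1149 of 10636 (10.8%) of the genes tested (16.3% of all promoters), and the Top2a promoter held 1 on each strand, at 179 and 23 bases, and the Mki67 promoter 2, at 116 and 98 bases. None of the 32 homeostatic microglia genes with a promoter held an ISRE or an E2F match. Interferon effectors also held CHR matches more often than genes tested, in 15 of 58 (25.9%) promoters. Of 8 further motifs searched on both strands, the kB core GGGANTTCC stood in 5 of 18 (27.8%) promoters of the NF-kB list against 1.92% of genes tested, the NRF1 core GCGCANGCG in 15 of 66 (22.7%) of oxidative phosphorylation against 11.4%, and CCAAT in 38 of 55 (69.1%) of mitosis and 15 of 17 (88.2%) of sterol synthesis against 36.5%. The sterol element ATCACNCCA stood in 1 of 17 (5.88%) of sterol promoters against 0.442%, the CEBP-ATF element TGATGNAAT in 1 of 23 (4.35%) of ATF4 targets against 0.404%, and the heat shock core GAANNTTC in 5 of 31 (16.1%) of chaperones against 5.11%. The E-box CACGTG stood in 9 of 41 (22%) of lysosome promoters against 8.4%, and the ETS core CCGGAAG in 9 of 38 (23.7%) of ribosome biogenesis against 14%. Promoters were found for 10636 of the 14260 genes tested. A match is a run of letters, and binding was not measured. The plot of promoter matches gives the same shares side by side.

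**Figure D1:**
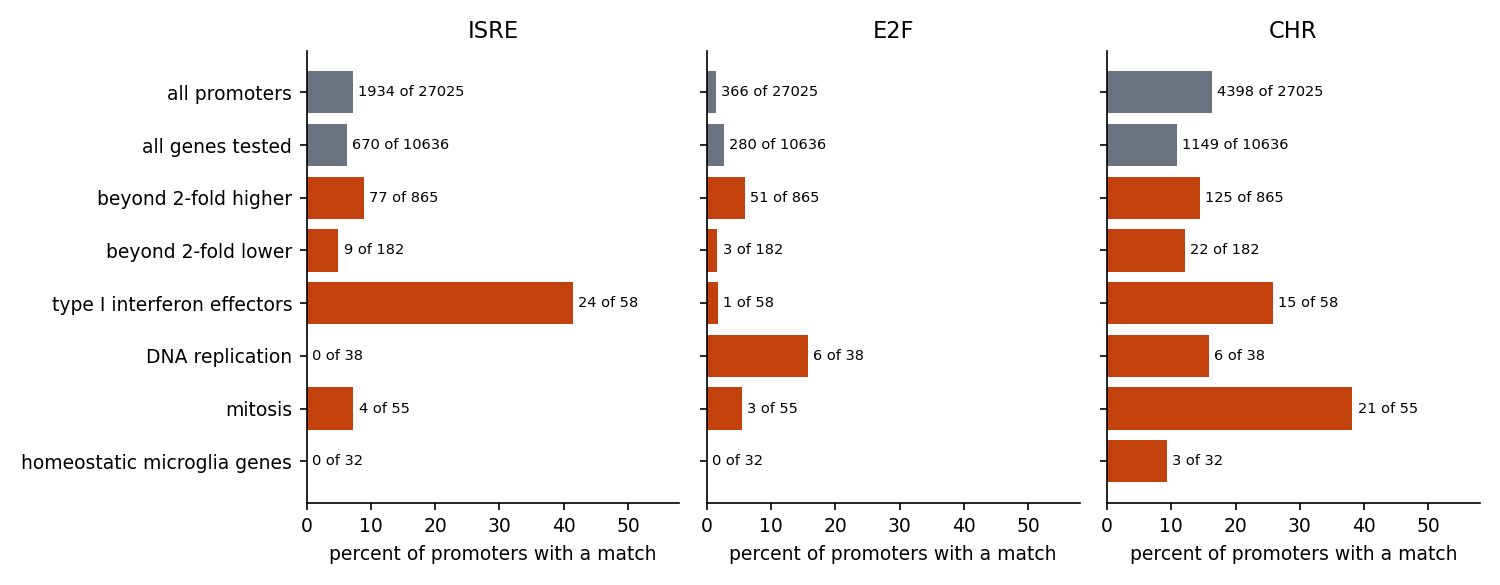
Percent of promoters (the 250 bases before the start) with at least 1 match to the ISRE, E2F or CHR letters, for all promoters of the table, all genes tested, genes beyond 2-fold in either direction and 4 gene lists, with counts beside the bars. ISRE matches stood in 41.4% of the interferon effectors and 6.3% of all genes tested, and CHR matches in 38.2% of the mitosis genes and 10.8% of all genes tested.

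Most of the transcriptome differed between the groups. In the limma-voom fit 9872 of 14260 genes tested passed at an adjusted p under 0.05 (69.2%), 4942 of them higher (34.7%) and 4930 lower (34.6%) in ATV:4D9. Since about 1 in 3 genes passed in each direction, the count of a list is read against these percentages and was also taken in a limma test against a 2-fold change, which 1112 genes passed upward (7.8%) and 253 downward (1.77%). On the TMM scale the change was lopsided in size, since the 90th percentile of the log2 fold change was 1.21 and the 10th percentile was -0.91. Genes with low levels were called less often, with 16.3% higher and 25.2% lower in the lowest of 5 equal bins of abundance against 52.6% and 31.8% in the highest bin. Scaling by total UMIs alone moved the median gene by -0.24 and gave 3690 higher and 6959 lower genes in place of 4942 and 4930. Under that scaling 793 genes were beyond 2-fold upward and 501 downward, in place of 1112 and 253. Small changes and the imbalance in size are thus relative to the TMM scale. Cells of ATV:4D9 mice held more UMIs, and 1056 of the 4930 lower genes (21.4%) had more UMIs per cell in ATV:4D9 than in ATV:RSV. All 253 genes beyond 2-fold downward had fewer UMIs per cell, which a fall of that size brings with it. Both scales come from the same UMIs, so this is not a second test, and UMIs per cell also depend on the depth of each library.

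**Figure D2:**
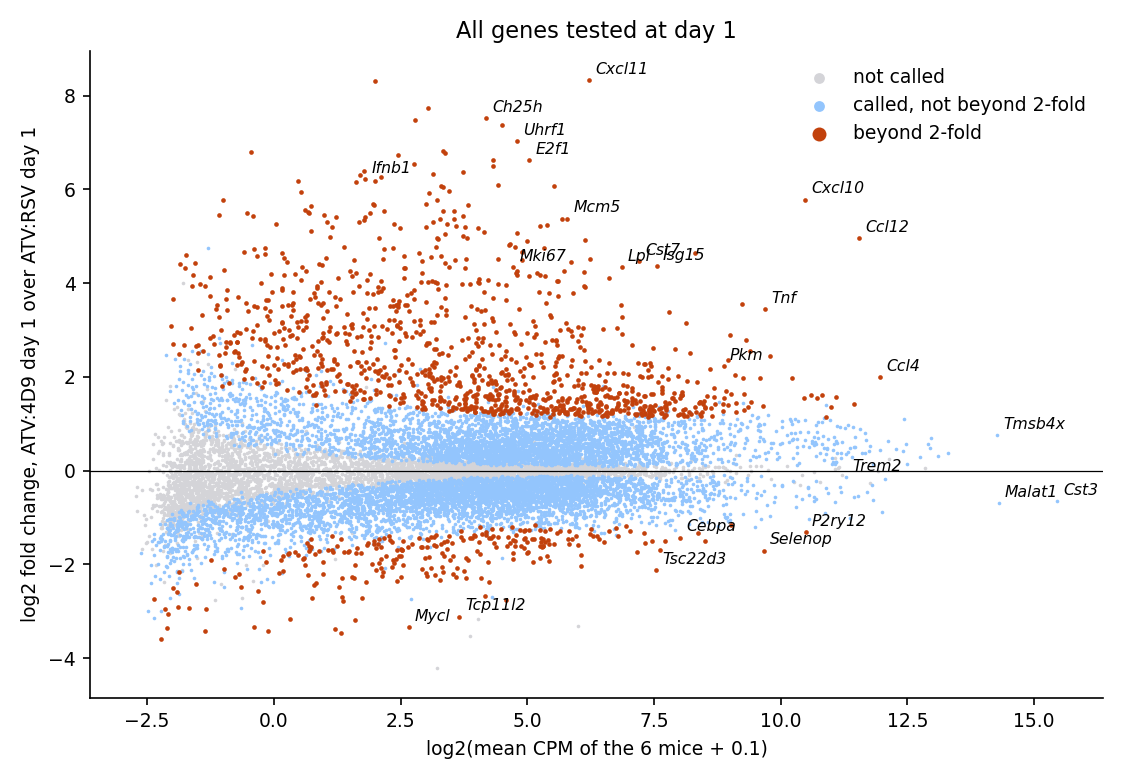
Log2 fold change of ATV:4D9 over ATV:RSV at day 1 (vertical) against the log2 of the mean CPM of the 6 mice plus 0.1 (horizontal) for the 14260 genes tested. Orange points are the 1112 genes beyond 2-fold upward and the 253 beyond 2-fold downward, light blue points were called only against 0, and gray points were not called.

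Among called genes with a mean of at least 5 CPM over the 6 mice whose groups did not overlap, the highest log2 fold changes included those of chemokine genes, a sterol hydroxylase gene and genes of DNA replication. Cxcl11, an interferon-induced chemokine, was at 0.961, 0.844 and 0.0954 CPM in the ATV:RSV mice and 134, 147 and 165 CPM in the ATV:4D9 mice, 8.33 ± 0.66 (SE) higher on the log2 scale by limma-voom (adjusted p = 1.54e-08). Without replicate 1 or 3 of ATV:RSV it was 8.94 or 7.34. Ch25h, whose enzyme makes 25-hydroxycholesterol, was at 0.164, 0.169 and 0.215 CPM in the ATV:RSV mice and 36.3, 28.8 and 43.1 CPM in the ATV:4D9 mice (log2 fold change 7.53 ± 0.56). Both genes went from near absence to clear levels in all 3 mice. Ass1, the argininosuccinate synthase that remakes arginine from citrulline, was at 0.164, 0.217 and 0.239 against 19.4, 16.4 and 15.8 CPM. Cxcl13, a B cell chemokine, was at 1.51, 0 and 0.0239 against 10.8, 10.3 and 9.39 CPM, and its highest ATV:RSV value came from replicate 1. The replication genes Mcm10, Cdc6 and Timeless, the checkpoint kinase gene Chek1 and the cyclin gene Ccne2 also stood among the 20 highest genes by the naming rule.

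Among called genes with a mean of at least 5 CPM whose groups did not overlap, those with the lowest log2 fold changes were of mixed kinds. Mycl, a relative of Myc, was at 11.1, 10.2 and 12.6 CPM in the ATV:RSV mice and 1.37, 1.21 and 0.749 CPM in the ATV:4D9 mice (log2 fold change -3.34 ± 0.26, adjusted p = 1.34e-08). Ddit4, which restrains mTOR complex 1, was at 25, 26.2 and 51.3 against 4.79, 5.23 and 4.73 CPM. Tsc22d3, a glucocorticoid-induced gene that encodes GILZ, was at 300.2, 253 and 358 against 60.7, 76 and 71.4 CPM. Ddit4 and Eps8l1, the latter at 15.8, 9.94 and 6.66 against 0.581, 2.21 and 3.53 CPM, did not pass the test against 2-fold. Without replicate 1 of ATV:4D9 the log2 fold change of Eps8l1 was -1.92 in place of -2.73. The histone demethylase gene Kdm5b was at 33.9, 32.1 and 29.5 against 6.93, 6.32 and 4.94 CPM. The CDK inhibitor gene Cdkn1c was at 24.9, 28.1 and 30.7 against 5.33, 5.62 and 6.1 CPM. The ubiquitin ligase gene Fbxo32 was at 8.93, 9.89 and 8.97 against 2.4, 1.7 and 1.69 CPM. Dbp, an output gene of the circadian clock, was at 18.4, 21.8 and 18.3 against 4.79, 4.02 and 5.11 CPM. Pde2a, a phosphodiesterase gene, was at 18.2, 16.8 and 21.9 against 4.41, 4.002 and 3.76 CPM. These 5 genes encode proteins of different kinds. Among immune receptors Fcrl1 was at 33.4, 29.4 and 29.6 against 5.61, 4.21 and 4.77 CPM. Pirb was at 13.8, 15.2 and 15.4 against 3.41, 2.71 and 3.49 CPM. Klrd1 was at 8.06, 10.4 and 7.99 against 1.6, 1.81 and 1.67 CPM. Klrd1 also marks NK cells, and of the other 5 NK markers listed the highest value was the 0.866 CPM of Gzma in replicate 2 of ATV:4D9, while Ncr1, Klrb1c and Prf1 did not exceed 0.098 CPM in any of the 6 mice. Selenop, a selenium carrier, was at 1286, 1180.5 and 1268 CPM in the ATV:RSV mice and 397, 360.3 and 387 CPM in the ATV:4D9 mice, and its log2 fold change was -1.71 ± 0.05.

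In CPM rather than in fold, the 15 largest gains included genes of actin, ferritin, chemokines, complement C1q and mitochondrially encoded subunits. Tmsb4x, the thymosin that binds free actin, gained most, from 14735 to 24950 mean CPM (log2 fold change 0.76 ± 0.05), and the chemokine genes Ccl12, Ccl4, Cxcl10 and Ccl3 all stood among the 15 largest gains. Ferritin genes Fth1 and Ftl1 gained from 3542 to 7553 and from 3454 to 5378 mean CPM, and Ctsz, a cathepsin gene, gained from 1520 to 4081. On the other side Cst3, which encodes the protease inhibitor cystatin C, lost most, at 54678, 52709 and 57024 CPM in the ATV:RSV mice and 37651, 32603 and 34164 CPM in the ATV:4D9 mice (log2 fold change -0.66 ± 0.06). Malat1, a nuclear non-coding RNA, was at 25527, 26068 and 23206 against 15899, 16180 and 14351 CPM. In UMIs per cell Cst3 and Malat1 were at 0.817 and 0.799 times their ATV:RSV means.

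**Figure D3:**
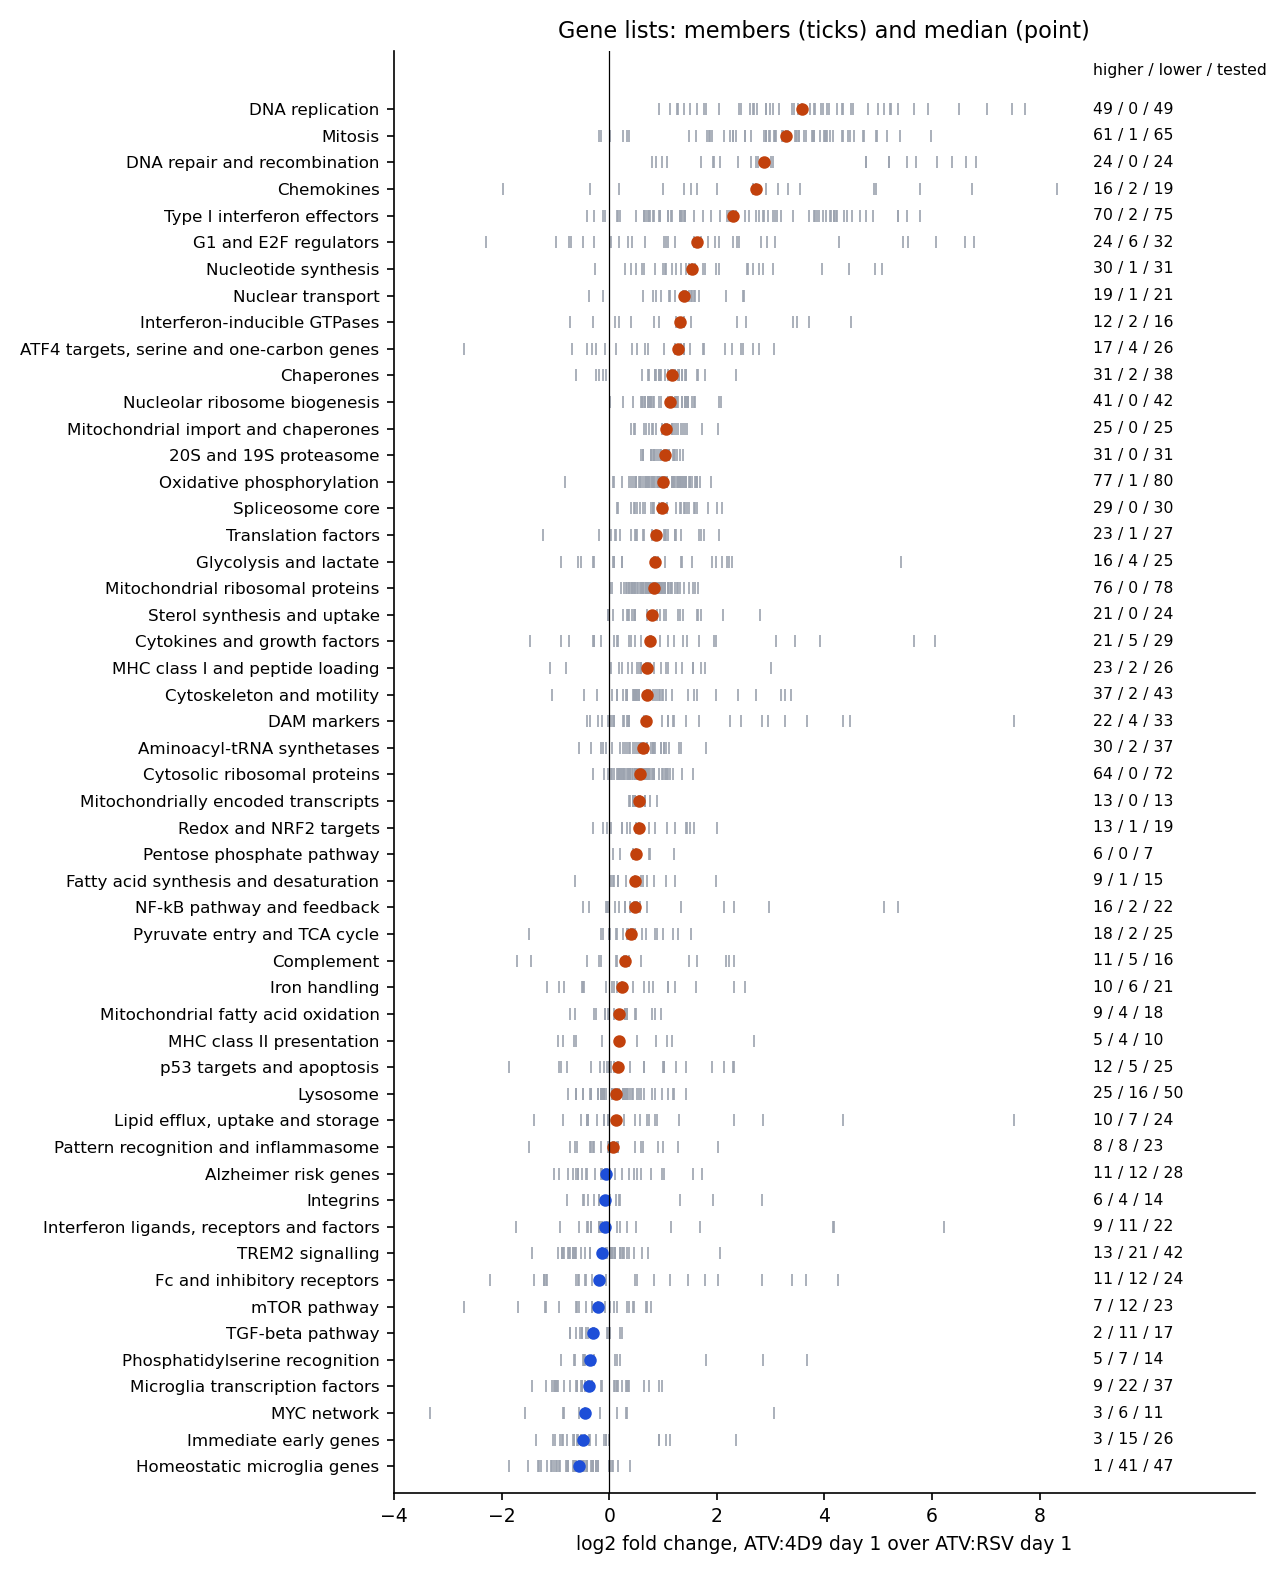
Log2 fold changes of the members of each gene list (gray ticks) and their median (point, orange above 0 and blue below), ordered by median, with the numbers of members called higher, called lower and tested. DNA replication has the highest median (3.58) and homeostatic microglia genes the lowest (-0.57).

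Interferon genes were followed from ligand to effector. Ifnb1, the gene of interferon beta, was the 1 ligand of 7 listed that could be tested, at 0.348, 0.0241 and 0.0239 CPM in the ATV:RSV mice and 4.56, 5.6 and 9.69 CPM in the ATV:4D9 mice (log2 fold change 6.23 ± 1.31, adjusted p = 5.33e-04). These levels stand for 17, 1 and 1 UMIs in the ATV:RSV mice and 290, 343 and 453 in the ATV:4D9 mice, so the control level rests on replicate 1. Without that mouse the log2 fold change was 7.40 (adjusted p = 0.00435). Ifna4, Ifng and Ifnl3 had no UMI in the 6 mice, which allows up to 0.024 CPM before TMM scaling in ATV:RSV and 0.0157 in ATV:4D9, and Ifna2, Ifnk and Ifnl2 had 1 each.

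Most receptor genes fell on the TMM scale. Of 7 receptors and kinases 5 fell and 1 rose, with log2 fold changes from -0.92 to 0.14, while 5 of the 7 had more UMIs per cell in ATV:4D9. Ifngr1, a chain of the interferon gamma receptor, was at 678, 649 and 669 against 382, 356 and 316 CPM, while the type I receptor genes Ifnar1 and Ifnar2 had log2 fold changes of -0.19 and 0.14, the latter turning to -0.10 under scaling by total UMIs and losing its call in 6 of 16 alternatives. Of 14 transcription factors and feedback genes 7 rose and 6 fell. Irf7, which is itself induced by interferon, was at 7.69, 2.68 and 3.51 CPM in the ATV:RSV mice and 72, 71.2 and 87 CPM in the ATV:4D9 mice (log2 fold change 4.15 ± 0.23). Irf4, a factor of lymphocytes and some myeloid cells, was lower at 4.03, 4.32 and 4.01 against 1.24, 1.39 and 1.03 CPM, and Irf8, a factor of the microglial lineage, had a log2 fold change of -0.13, a call lost in 10 of 16 alternatives. Usp18, which removes ISG15 and damps the receptor, was at 6.97, 2.48 and 3.34 against 69.5, 70.7 and 75.2 CPM.

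Effector genes rose almost throughout. Of 75 type I interferon effectors 70 rose and 2 fell, 52 were beyond 2-fold, and the median log2 fold change was 2.29 against -0.05 for all genes. All 26 antiviral effectors rose, with a median of 3.84. Ifitm3, which blocks viral entry, was at 43, 15.1 and 20.6 CPM in the ATV:RSV mice and 644, 524 and 662 CPM in the ATV:4D9 mice. Bst2, which tethers virions, was at 174, 149 and 159.8 against 1118, 1013 and 1201 CPM. Rsad2, the viperin gene, was at 6.42, 0.796 and 2.27 against 91.4, 107 and 99.1 CPM. Isg15, the ubiquitin-like modifier, was at 27, 12.5 and 14.7 against 309, 373 and 392 CPM. The groups were far apart in each of them, and replicate 1 of ATV:RSV was the highest control for all 4. Without that mouse the log2 fold change of Rsad2 was 6.19 in place of 5.37, and without replicate 2 it was 4.65. Among the sensors of nucleic acids Ifi204 was at 15.2, 4.03 and 7.21 against 102, 108 and 119.5 CPM. Cgas was at 29.6, 28.4 and 30.6 against 65.4, 78.5 and 79.5 CPM, whereas Tmem173 (the STING gene) and Tlr7 were the 2 that fell, at 242, 229 and 229 against 199, 181 and 200.3 CPM and 91.5, 86.8 and 89.3 against 69, 65.2 and 66.4 CPM.

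Genes for antigen presentation changed by class. Interferon-inducible GTPases rose in 12 of 16 members and fell in 2, with Iigp1 at 2.92, 0.289 and 0.907 against 21.1, 23.8 and 21.9 CPM. Without replicate 1 or 2 of ATV:RSV the log2 fold change of Iigp1 was 5.40 or 3.71 in place of 4.50. Gbp7 was at 61.4, 67.9 and 63.6 against 36.6, 32.8 and 50.01 CPM. In the class I list 23 of 26 rose and 2 fell, but only 5 passed the test against 2-fold. B2m, the light chain, was at 1488, 1212 and 1227 against 2346, 1953 and 2024 CPM. H2-K1 was at 507, 383 and 420.4 against 985, 851 and 884 CPM. Nlrc5, the activator of class I genes, was at 1.55, 0.675 and 0.883 against 8.62, 7.17 and 8.81 CPM. H2 class I genes are near copies of each other, so reads may have been split or lost between them. All 5 immunoproteasome genes rose, and Psme1 and Psme2 encode its activator. Psme1 was at 179, 174 and 185 against 454, 457 and 463 CPM. Psme2 was at 90.1, 85.7 and 94.7 against 305, 300.0 and 329.9 CPM. Class II genes were mixed, with 5 of 10 higher and 4 lower, and their median of 0.19 turned to -0.06 under scaling by total UMIs. Cd74, the invariant chain, was at 40.2, 29 and 38.4 CPM in the ATV:RSV mice and 255, 201 and 237 CPM in the ATV:4D9 mice, H2-Ab1 and H2-Aa had log2 fold changes of 1.18 and 1.07, and Ctss, the protease that trims the invariant chain, was at 4379, 4194 and 4568 against 2991, 2724 and 2854 CPM.

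Chemokine genes showed some of the largest movements in CPM. Of 19 tested 16 rose, 2 fell and 11 were beyond 2-fold upward, and the whole list held 0.345, 0.339 and 0.317% against 1.54, 1.68 and 2.16% of the UMIs of each mouse. Cxcl10, which attracts T cells through CXCR3, was at 69.6, 42.3 and 40.8 CPM in the ATV:RSV mice and 2123, 2609.9 and 3679.5 CPM in the ATV:4D9 mice (log2 fold change 5.78 ± 0.21). Ccl12, a monocyte chemokine, was at 216, 164 and 179.5 against 5190.1, 5123 and 7154 CPM. Ccl4 was at 1634, 1649 and 1488 against 5262, 6231 and 7774 CPM. Ccl3 was at 847, 883 and 874 against 2304, 2546 and 3277 CPM. Ccl5 was at 39.7, 3.76 and 1.93 CPM in the ATV:RSV mice and 75.3, 70.9 and 70.2 CPM in the ATV:4D9 mice, so replicate 1 of ATV:RSV was more than 10 times either other control. Without that mouse the log2 fold change of Ccl5 was 4.74 in place of 3.33, and without replicate 3 it was 2.46.

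Cytokine genes rose in 21 of 29 and fell in 5, with a median of 0.75. Tnf was at 137, 174 and 109 CPM in the ATV:RSV mice and 1333, 1529 and 1670.1 CPM in the ATV:4D9 mice (log2 fold change 3.45 ± 0.24, adjusted p = 4.15e-09). Il1b was at 119, 85.9 and 66 against 272, 341 and 425 CPM. Il1rn, the decoy ligand of its receptor, was at 0.266, 0.169 and 0.0477 against 6.98, 7.19 and 8.49 CPM. Il12b, the shared subunit of interleukins 12 and 23, was at 0.675, 0.289 and 0.0954 against 15.3, 22.7 and 20.7 CPM, while its partner Il12a was too low to test, with at most 2 UMIs a mouse. Lif, a cytokine of the interleukin 6 family, had no UMI in ATV:RSV and 13, 51 and 42 UMIs in the ATV:4D9 mice, at least 23.1-fold higher when set against a floor of 3 counts over the ATV:RSV group. Il12a and Lif, like Gpnmb, a marker of activated microglia, were picked for mention after their values were seen. Of the 22 genes of the NF-kB pathway and its feedback 16 rose and 2 fell, among them the co-stimulatory receptor gene Cd40 at 0.716, 0.265 and 0.406 against 15.1, 20.8 and 20.1 CPM. The inhibitor gene Nfkbia was at 1496, 1567 and 1472 against 1620, 2068 and 2297 CPM, and its call was lost under scaling by total UMIs (adjusted p = 0.143). In the pattern recognition and inflammasome list 8 rose and 8 fell of 23. These shares of 34.8% each way were near the 34.7% and 34.6% of all genes tested. The median of this list, 0.07, turned negative under scaling by total UMIs. Tlr2, a receptor for bacterial lipoproteins, was at 83.6, 77 and 78 against 298, 314 and 366 CPM. Tlr5, a receptor for flagellin, was at 5.4, 7.41 and 6.2 against 2.2, 1.99 and 2.52 CPM.

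Monocyte markers summed to 6.44 to 16.3 CPM in ATV:RSV and 31.7 to 35.4 CPM in ATV:4D9, and markers of border-associated macrophages to 16.3 to 19.9 CPM in ATV:RSV and 22.9 to 32.7 CPM in ATV:4D9. The monocyte sum rose through Plac8 (2.11, 0.844 and 0.859 against 16.6, 13.3 and 13.5 CPM) and Ms4a4c (3.99, 1.83 and 2.1 against 14.7, 15.4 and 16.6 CPM), whereas Ccr2, the chemokine receptor that defines monocytes, was at 7.97, 3.09 and 3.87 against 2.22, 2.07 and 1.45 CPM. Of the 8 border-associated macrophage markers 4 were called higher and 0 lower. Their sum rose mainly through Pf4 (6.79, 5.55 and 4.15 against 9.11, 11.1 and 13.4 CPM) and Siglec1 (0.307, 0.0965 and 0.286 against 3.05, 3.09 and 2.99 CPM). Mrc1 was at 7.83, 6.75 and 9.38 against 4.96, 7.06 and 7.70 CPM. The part of such cells in the chemokine and interferon results was not tested beyond leaving out cells with UMIs of at least 3 markers of another type, which gave medians of 2.30 for interferon effectors and 2.66 for chemokines, against 2.29 and 2.72 with all cells.

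**Figure D4:**
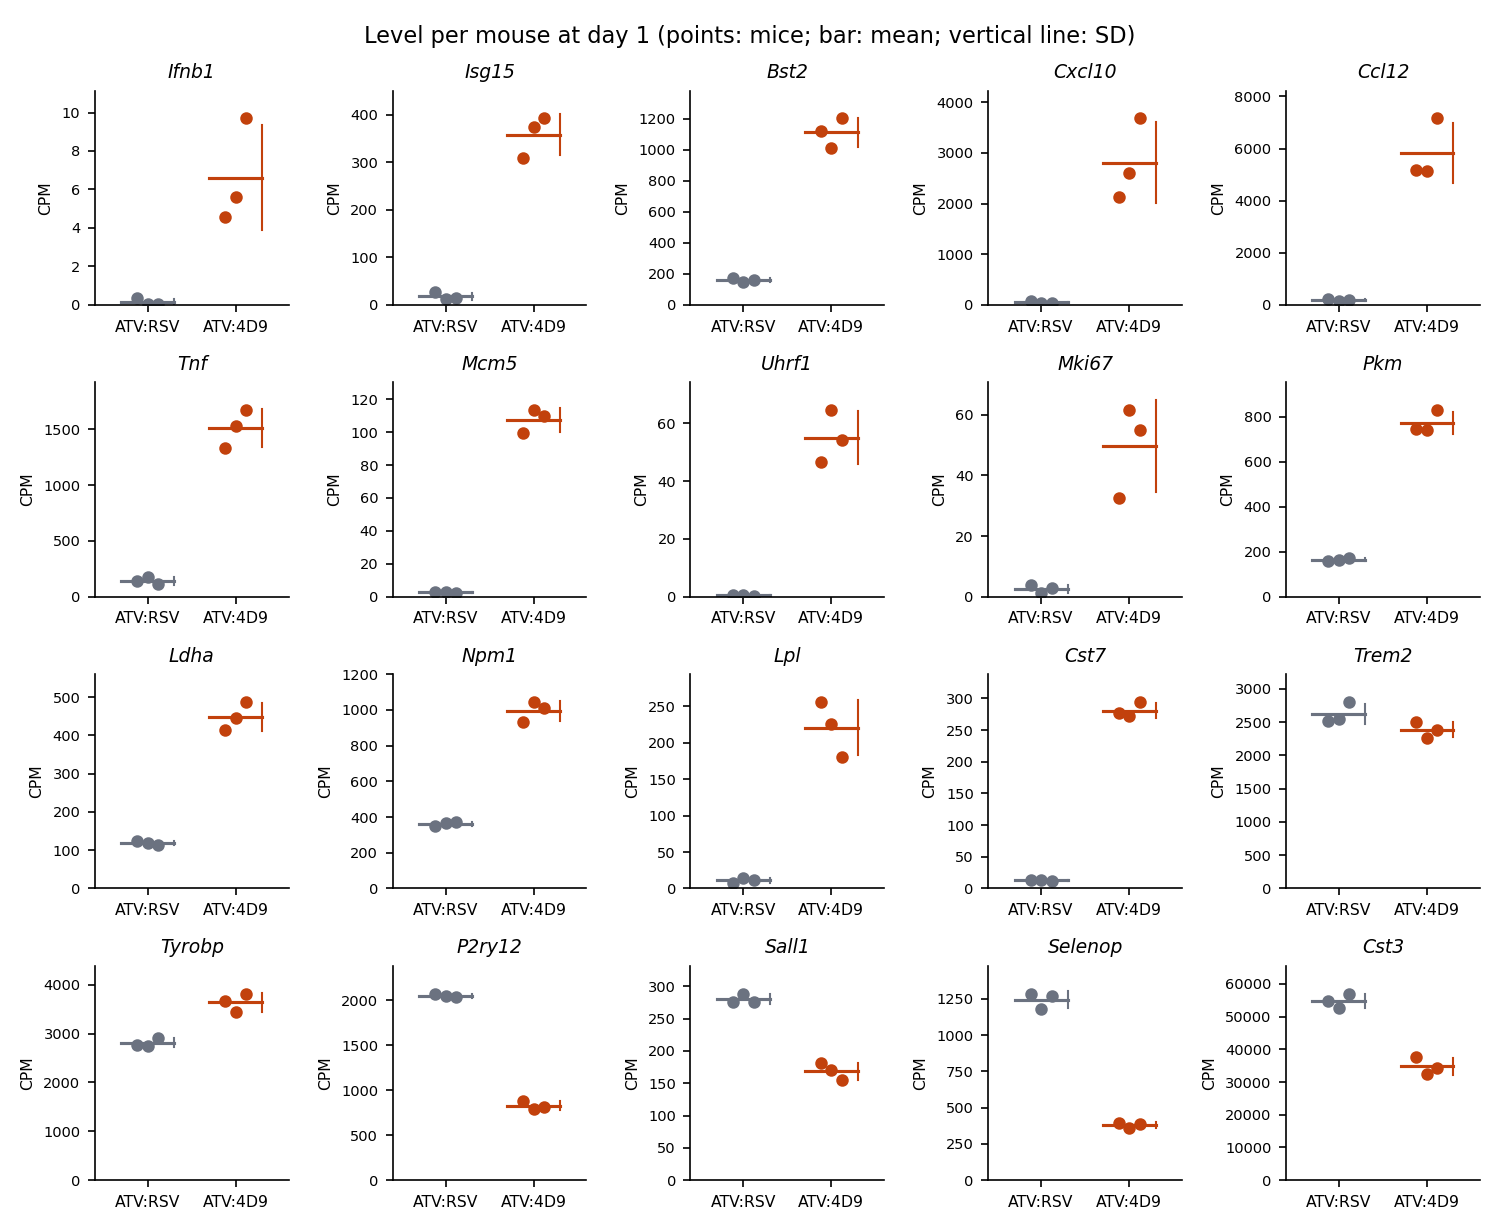
CPM of 20 genes in each of the 6 mice, with points for mice, a bar for the mean of 3 and a vertical line for the SD, each panel starting at 0. Cxcl10 lies between 40.8 and 69.6 in ATV:RSV and between 2123 and 3680 in ATV:4D9, whereas the ranges of Trem2 lie close together.

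Cell cycle genes were read from G1 onward. All 10 G1 cyclins and kinases rose, with a median log2 fold change of 1.71. Ccnd1, the D cyclin that starts the sequence, was at 124, 132 and 119 CPM in the ATV:RSV mice and 270.0, 283 and 318 CPM in the ATV:4D9 mice. Cdk4 was at 48, 50.3 and 53 against 145, 151 and 155 CPM. Ccne2, which acts at the G1 to S boundary, was at 0.388, 0.121 and 0.0954 against 17.2, 24.7 and 19 CPM. E2f1 was at 0.654, 0.675 and 0.597 against 58.1, 68 and 67.7 CPM, and the later E2F genes E2f7 and E2f8 had log2 fold changes of 5.45 and 5.55. Without replicate 1 of ATV:RSV these were 6.32 and 6.19, and without replicate 2 E2f7 was at 4.16. Without the cells with a UMI of Mki67, Top2a, Rrm2 or Pclaf E2f8 was at 3.79. CDK inhibitors did not move as a group. Cdkn1a (p21) was at 65, 38.6 and 45.4 against 205, 265 and 253 CPM. Cdkn2a was at 1.002, 0.603 and 0.74 against 5.17, 9.12 and 6.25 CPM, while Cdkn1b (p27) was at 62.4, 69.2 and 57.8 against 30.8, 35.3 and 29.1 CPM and Cdkn1c (p57) was among the lowest genes above. The log2 fold change of Cdkn2a was 3.09, and 2.04 without the cells with a UMI of a cycling gene. Cdkn2d did not pass, with a log2 fold change of 0.04, but was at -0.66 (adjusted p = 2.05e-04) once cells with a UMI of a cycling gene were left out.

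Every one of the 49 genes for DNA replication rose, against 34.7% of all genes, and 46 were beyond 2-fold. Their median log2 fold change was 3.58, from 0.92 to 7.74. Among genes that license origins, the helicase subunit genes Mcm5 and Mcm6, whose promoters are printed above, both rose. Mcm5 was at 3.03, 2.56 and 2.15 against 99.1, 113 and 110.0 CPM. Mcm6 was at 5.83, 6.8 and 6.25 against 137, 150.2 and 147 CPM. Pcna, the sliding clamp, was at 52.1, 50.2 and 47.5 CPM in the ATV:RSV mice and 284, 322 and 315 CPM in the ATV:4D9 mice (log2 fold change 2.62 ± 0.06). Lig1, which joins Okazaki fragments, was at 8.55, 8.85 and 7.87 against 108, 143 and 140.5 CPM. Uhrf1, which brings maintenance methylation to the fork, was at 0.613, 0.434 and 0.239 against 46.5, 64.5 and 54.1 CPM. Its partner Dnmt1 was at 16.7, 16.5 and 14 against 79, 95.5 and 84.5 CPM. For all of these genes every ATV:4D9 mouse lay above every ATV:RSV mouse, while 71.5% of all genes tested had groups without overlap in either direction. Repair genes followed in 24 of 24, with Parp1 at a log2 fold change of 0.98.

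Nucleotide synthesis genes were higher in 30 of 31 and lower in 1. All 8 genes for deoxynucleotides rose beyond 2-fold, with Tyms (thymidylate synthase) at 12.7, 11 and 12 against 74.4, 87.9 and 84.4 CPM. Tk1 (thymidine kinase) was at 1.41, 1.66 and 1.62 against 43.9, 63.2 and 53.6 CPM. Rrm2 (a ribonucleotide reductase subunit) was at 1.29, 0.289 and 0.382 against 11.3, 23.2 and 19.3 CPM. Purine genes rose in 14 of 14 with a median of 1.11, led in fold by Impdh2 at 32.1, 33.1 and 35.2 against 136, 136 and 139 CPM. Nme1 and Nme2, neighboring nucleoside diphosphate kinases, had log2 fold changes of 2.59 and 1.98.

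Mitosis genes rose in 61 of 65 and fell in 1, with a median of 3.28. Mki67 was at 3.84, 1.13 and 2.77 CPM in the ATV:RSV mice and 32.6, 61.5 and 55.1 CPM in the ATV:4D9 mice. Top2a was at 4.89, 1.71 and 2.46 against 56.4, 90.4 and 84.9 CPM. Aurkb, the kinase of the chromosomal passenger complex, was at 0.94, 0.386 and 0.597 against 11, 15.6 and 16.1 CPM. Cenpk, a kinetochore gene, was at 0.94, 0.868 and 0.787 against 28.3, 34.4 and 32.5 CPM. Replicate 1 of ATV:4D9 was the lowest of the treated mice for Mki67 and Top2a and still lay above every control. Pttg1, the securin gene, was the 1 that fell, at 58.2, 55.8 and 60.1 against 51.3, 47.3 and 53.9 CPM. Its adjusted p of 0.0132 went to 0.0517 without replicate 3 of ATV:RSV and to 0.0812 without replicate 2 of ATV:4D9. Without the cells with a UMI of Mki67, Top2a, Rrm2 or Pclaf its log2 fold change was -0.03 in place of -0.19 (adjusted p = 0.734).

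In the MYC network more genes fell than rose. Of 11 members 6 fell and 3 rose. Myc itself was at 30.3, 32.4 and 31.9 against 33.9, 29.4 and 43.5 CPM and did not pass (log2 fold change 0.15 ± 0.15, adjusted p = 0.386). Its antagonists Mxd4, Mnt and Mxi1 fell, at 65, 67.5 and 59.5 against 23.9, 20.2 and 20.6 CPM for Mxd4, while Mxd3, an antagonist known from S phase, rose from 0.2996 to 2.59 mean CPM.

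Cells with a UMI of Mki67, Top2a, Rrm2 or Pclaf made up 1.23%, 0.751% and 0.91% of the cells in the ATV:RSV mice and 24.2%, 32.5% and 30.2% in the ATV:4D9 mice at the deposited depth, which was higher in ATV:4D9. After they were left out, 49 of 49 replication genes still rose, with a median of 3.09. Mitosis genes then rose in 49 of 59 tested and fell in 4, with a median of 2.44. Interferon effectors and oxidative phosphorylation kept medians of 2.39 and 1.01. A cycling cell without a UMI of these 4 genes stays in such a sum.

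Genes of the machinery that makes and handles proteins rose widely and by less. Nucleolar ribosome biogenesis genes rose in 41 of 42 with a median of 1.14. Npm1, the nucleophosmin gene, was at 348, 367 and 370.0 CPM in the ATV:RSV mice and 934, 1044 and 1009.6 CPM in the ATV:4D9 mice. Ncl (nucleolin) was at 243, 274 and 243 against 631, 744 and 660.2 CPM and Nhp2, of the small nucleolar particles, at a log2 fold change of 2.09. Cytosolic ribosomal protein genes rose in 64 of 72, and together they held 11.8, 11.5 and 11.2% against 14.1, 14.3 and 13.6% of the UMIs. Rps2 was the highest of the list at a log2 fold change of 1.56, against a median of 0.56, and Rpsa, a ribosomal protein gene that the list leaves out, was at 1.58. Reads of ribosomal protein genes can be shared with their many pseudogenes. Mitochondrial ribosomal protein genes rose in 76 of 78.

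Translation factors rose in 23 of 27, with Eif5a, which helps the ribosome past stalls, at 204, 214 and 227 against 822, 871 and 945 CPM. Cytosolic aminoacyl-tRNA synthetases rose in 17 of 20, the mitochondrial ones in 13 of 17, and Vars, for valine, was at 25, 27 and 29 against 91.9, 99.7 and 89 CPM. Of the spliceosome core 29 of 30 rose, and of the nuclear transport genes 19 of 21, where Ran, the GTPase that gives transport its direction, was at 141, 137 and 142 against 589.7, 637 and 678 CPM. Its binding partner Ranbp1 was at 83.1, 87.8 and 93.7 against 464, 524 and 513 CPM. All 31 genes of the 20S and 19S proteasome rose, with a median of 1.03. Chaperones rose in 31 of 38 and fell in 2. In the endoplasmic reticulum Hspa5 (BiP) was at 782, 766 and 739 CPM in the ATV:RSV mice and 2515, 2220 and 2317 CPM in the ATV:4D9 mice. Sdf2l1 was at 162, 156 and 167 against 812, 707 and 987 CPM, and in the cytosol Hsp90ab1 was at 1328, 1000.5 and 817 against 2487, 2659.6 and 3078 CPM. The groups did not overlap for Npm1, Ncl, Rps2, Eif5a, Ran, Ranbp1, Vars, Hspa5, Sdf2l1 and Hsp90ab1. This held for 71.5% of all genes tested.

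Energy metabolism genes rose for oxidative phosphorylation and for the lower part of glycolysis. Nuclear genes of oxidative phosphorylation rose in 77 of 80 and fell in 1, with a median of 1.00. The medians by complex were 0.88 for complex I (36 genes), 1.04 for complex III with cytochrome c (10), 1.27 for complex IV (12) and 1.12 for complex V (18), and 0.56 for the 4 genes of complex II. Atp5g1, a ring subunit of the ATP synthase, was at 128, 136 and 151 CPM in the ATV:RSV mice and 489, 504 and 548 CPM in the ATV:4D9 mice. Cycs (cytochrome c) was at 63.2, 61.9 and 64.4 against 200.1, 202 and 212 CPM. Ndufa12, of complex I, was at 74.2, 68.1 and 70.7 against 221, 215 and 227 CPM. The 13 genes encoded in the mitochondrion all rose, with log2 fold changes from 0.37 to 0.89, and mt-Nd1 was at 2049, 2049 and 2238 against 3859, 3702 and 4213 CPM. Genes of mitochondrial import and its chaperones rose in all 25, with Hspd1 (HSP60) at 109, 90.8 and 83 against 302, 288 and 337 CPM.

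Glycolysis split within the pathway. Lower glycolysis and lactate genes rose in 9 of 10, 8 of them beyond 2-fold, with a median of 1.95. Pkm (pyruvate kinase) was at 159.6, 162 and 174 CPM in the ATV:RSV mice and 747, 742 and 829 CPM in the ATV:4D9 mice. Gapdh was at 481, 472 and 498 against 1832, 1818 and 2068 CPM. Ldha, which favors lactate, was at 124, 118 and 114 against 415, 445 and 487 CPM. The lactate exporter gene Slc16a3 was at 24.7, 27.6 and 29 against 111, 116 and 118 CPM. Ldhb, which favors pyruvate, was the 1 that fell, at 540.0, 572 and 608 against 507, 434 and 475 CPM. Glucose uptake and the first steps rose in 7 of 15 and fell in 3. There the transporter gene Slc2a6 was at 0.879, 0.386 and 0.549 against 24.3, 24.6 and 28.1 CPM and Hk2, a hexokinase gene, did not pass (log2 fold change 0.09). The difference between the 2 parts of the pathway was not tested.

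In the pyruvate entry and TCA cycle list 18 of 25 rose and 2 fell, and in the pentose phosphate pathway 6 of 7 rose. Pdk2, which shuts pyruvate out of the cycle, was at 5.83, 5.69 and 5.44 against 2.06, 2.04 and 1.86 CPM. Idh3a, of the cycle itself, was at 19.4, 19.999 and 21.8 against 57, 59.6 and 59.7 CPM. Sterol synthesis and uptake genes rose in 21 of 24, with Sqle (squalene epoxidase) at 0.491, 0.555 and 0.406 against 3.31, 3.23 and 3.76 CPM. Fatty acid synthesis and desaturation genes rose in 9 of 15, led by Fasn (fatty acid synthase) at 3.35, 3.35 and 3.77 against 13.7, 13.5 and 14.2 CPM. Mitochondrial fatty acid oxidation genes rose in 9 and fell in 4 of 18 (50% and 22.2%), against 34.7% and 34.6% of all genes tested. Their median of 0.19 changed sign under scaling by total UMIs. So did the median of lipid efflux, uptake and storage (10 higher and 7 lower of 24), a list in which Lpl (lipoprotein lipase) was at 7.54, 14.1 and 12.1 against 256, 225 and 181 CPM. Apoe (apolipoprotein E) was at 503, 553 and 509 against 571, 340.3 and 304 CPM. The groups overlapped for Apoe, since replicate 1 of ATV:4D9 was the highest of the 6 mice, and the call of Apoe (log2 fold change -0.42, adjusted p = 0.0432) did not hold in 12 of 16 alternatives, where its adjusted p ran from 0.0517 to 0.236.

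ATF4 targets with serine and one-carbon genes rose in 17 of 26 and fell in 4. Mthfd2, the mitochondrial folate enzyme, was at 8.89, 9.99 and 16.5 against 73, 77.6 and 81.7 CPM. Phgdh, the first enzyme of serine synthesis, was at 111, 116 and 125 against 318, 297 and 309 CPM. Asns (asparagine synthetase) was at 0.409, 0.458 and 0.764 against 5.89, 4.23 and 3.27 CPM. Redox and NRF2 target genes rose in 13 of 19, with Txn1 (thioredoxin) at 66.2, 64.4 and 69.4 against 255, 270.4 and 275 CPM. In the iron list, where the median of 0.23 fell to -0.01 under scaling by total UMIs, 10 rose and 6 fell of 21. Tfrc, whose product is the receptor that the vehicle binds, was at 4.44, 4.1 and 4.75 CPM in the ATV:RSV mice and 24.8, 26.3 and 25.6 CPM in the ATV:4D9 mice (log2 fold change 2.53 ± 0.09), and its reads come from the 3′ end of the knocked-in locus. In the mTOR list 7 rose and 12 fell of 23, and Deptor, an inhibitor gene, was at 8.38, 8.08 and 7.8 against 2.89, 2.52 and 2.07 CPM. As UMIs per cell, 14 of the 23 mTOR genes were higher in ATV:4D9, and the list was at 1.49 times its ATV:RSV mean.

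Homeostatic microglia genes were lower almost as a block. Of 47 tested 41 fell, against 34.6% of all genes, and 1 rose, with a median of -0.57. The changes were modest in size, since 4 of them passed the test against 2-fold, among them P2ry12 (a purine receptor of process motility) at 2074, 2050 and 2032 CPM in the ATV:RSV mice and 883, 788 and 812 CPM in the ATV:4D9 mice. Rnase4 was at 547, 523 and 535 against 189, 184 and 191 CPM. Cx3cr1, the fractalkine receptor, was at 3357, 3506 and 3097 against 2336, 2305 and 2082 CPM. Csf1r, the receptor for survival factors, was at 2341, 2257 and 2259 against 1678, 1626 and 1634 CPM. Tmem119 was at 1205, 1111 and 1108 against 979, 837 and 975 CPM. As UMIs per cell, 14 of the 47 were higher in ATV:4D9, while the others were lower on both scales. Lineage transcription factors fell in 15 of 19 and rose in 4. Sall1, which keeps microglial identity, was at 276, 289 and 275 against 181, 170.0 and 155 CPM. Cebpa was at 409, 317 and 403 against 147, 149.6 and 121 CPM. In the TGF-beta pathway, which maintains this state, 11 of 17 fell and 2 rose, with a median of -0.30. As UMIs per cell, 9 of these 17 were higher in ATV:4D9, and the list as a whole was at 1.02 times its ATV:RSV mean.

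Disease-associated microglia (DAM) markers, a list known from amyloid models, rose in 22 of 33 and fell in 4. Stage 2 markers had 12 of 25 beyond 2-fold upward, with Cst7 (cystatin F) at 12.8, 12.7 and 12.3 against 276, 271 and 294 CPM. Axl, a receptor for phosphatidylserine bridges, was at 4.5, 2.39 and 2.004 against 41, 36.1 and 33 CPM. Itgax (CD11c) was at 3.25, 3.98 and 3.13 against 25.6, 23.3 and 25 CPM. Gpnmb, another such marker, was too low to test, with 1, 3 and 1 UMIs in the ATV:RSV mice and 9, 4 and 9 in the ATV:4D9 mice. The receptor itself stayed near its control level, with Trem2 at 2519.5, 2549.6 and 2801 CPM in the ATV:RSV mice and 2495, 2266 and 2387 CPM in the ATV:4D9 mice (log2 fold change -0.14 ± 0.05, adjusted p = 0.0176). The groups of Trem2 lay close together without overlap. Its adjusted p went to 0.104 without replicate 3 of ATV:RSV, to 0.103 without replicate 2 of ATV:4D9, to 0.0752 in a fit of the 6 mice alone and to 0.127 without the cells with a UMI of a cycling gene. In the TREM2 signaling list 21 of 42 fell and 13 rose on the TMM scale, while 26 of the 42 had more UMIs per cell in ATV:4D9. Tyrobp, the adaptor, was at 2770.5, 2749 and 2918 against 3657, 3439.7 and 3816 CPM. Syk, the kinase, was at 90.3, 83.1 and 74.8 against 44.7, 42.1 and 41.6 CPM. Genes of phospholipase, PI3K and further steps fell in 16 of 24, down to a log2 fold change of -0.89. As UMIs per cell, 11 of these 24 were higher in ATV:4D9, and this part of the list was at 0.993 times its ATV:RSV mean. Sheddase and processing genes rose in 5 of 6 on the TMM scale, with a median of 0.22 and 0 beyond 2-fold. Together they held 0.0357, 0.0364 and 0.0355% of the UMIs in the ATV:RSV mice and 0.0353, 0.0348 and 0.0335% in the ATV:4D9 mice.

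Lists that share genes with phagocytosis were mixed. Lysosome genes rose in 25 of 50 and fell in 16, and their median of 0.13 turned to -0.11 under scaling by total UMIs. The proton pump rose in 12 of 15, and Ctsz was at 1442, 1458 and 1659 against 3948, 3961 and 4335 CPM where Ctss, given above, was lower. Among Fc receptors 3 rose and 3 fell of 6. Fcgr4 was at 10.1, 9.14 and 10.7 against 32.7, 32.8 and 37.8 CPM, while Fcgr3 was at 1047, 945 and 1030.4 against 429.8, 378 and 507 CPM and the inhibitory Fcgr2b at 156, 141 and 155 against 62.7, 63.1 and 68.2 CPM. Inhibitory receptors and ligands rose in 8 and fell in 9 of 18, with 5 and 4 beyond 2-fold. Lilrb4a was at 2.62, 3.33 and 2.39 against 52, 54.6 and 50.9 CPM. Vsir (VISTA) was at 701, 729.9 and 725 against 343, 299 and 326 CPM. Complement genes rose in 11 of 16 and fell in 5. Phosphatidylserine recognition genes rose in 5 of 14 (35.7%) and fell in 7 (50%). Alzheimer risk genes rose in 11 of 28 (39.3%) and fell in 12 (42.9%). Of all genes tested 34.7% rose and 34.6% fell.

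Actin genes rose in all 22, led in fold by Capg, which caps filaments, at 19.5, 22.6 and 23.4 against 201, 206 and 225 CPM, and tubulin, filament and adhesion genes rose in 15 of 21, with Stmn1, which frees tubulin, at 45.6, 36.1 and 34.7 against 334, 448 and 439 CPM. Without the cells with a UMI of a cycling gene the log2 fold change of Stmn1 was 2.76 in place of 3.38. Lmna (lamin A) was at 4.01, 3.35 and 4.29 against 34.1, 40.7 and 32.3 CPM. Integrins rose in 6 and fell in 4 of 14, and the sign of their median depended on the setting. The list of p53 targets and apoptosis rose in 12 and fell in 5 of 25, with a median that changed sign under scaling by total UMIs. Immediate early genes fell in 15 of 26 and rose in 3. Jun was at 5199, 5756 and 5034 CPM in the ATV:RSV mice and 2789, 3143 and 2741 CPM in the ATV:4D9 mice. Fos was at 3628, 3499.7 and 3318 against 2279, 2708 and 2265 CPM. Such genes are also switched on by dissociation, and its part here was not tested. Response factors of microglia rose in 5 and fell in 7 of 18 (27.8% and 38.9%), against 34.7% and 34.6% of all genes tested.

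UMIs of a list were also summed within each cell, after each cell was thinned to 3000 UMIs so that depth did not set the sums. A thinned sum is thus relative to the other UMIs of the cell and is not an amount per cell. No share in a cell type that lacks these genes was measured, so UMIs from free RNA are not separated from those of the cell in the values per cell. The median cell held 7, 7 and 8 UMIs of interferon effectors in the ATV:RSV mice and 15, 14 and 14 in the ATV:4D9 mice, and the 90th percentile went from 13, 12 and 13 to 44, 44 and 43. The upper tail moved further than the middle. For oxidative phosphorylation the whole distribution moved, since its 10th percentile in ATV:4D9 (40, 39 and 40) lay above the ATV:RSV median (36, 35 and 36). DNA replication went from a median of 1, 1 and 1 to 6, 8 and 7, and mitosis from 1, 1 and 1 to 3, 3 and 3 with 90th percentiles of 8, 12 and 10 in ATV:4D9. Homeostatic genes, of which Cst3 holds a large part, went from a median of 308, 297 and 319 to 195, 173 and 177. At the deposited depth, which was higher in ATV:4D9, their mean per cell was 679, 575 and 649 UMIs in the ATV:RSV mice. It was 633, 527 and 518 UMIs in the ATV:4D9 mice, so the groups overlapped there. In each of these comparisons of thinned sums by a median, a 90th percentile or the percentile named, the groups of 3 mice did not overlap (exact two-sided permutation test, p = 0.1, the smallest that 3 against 3 allows). The exact test, here and for the shares of cells below, did not use the pairing of mice by batch.

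**Figure D5:**
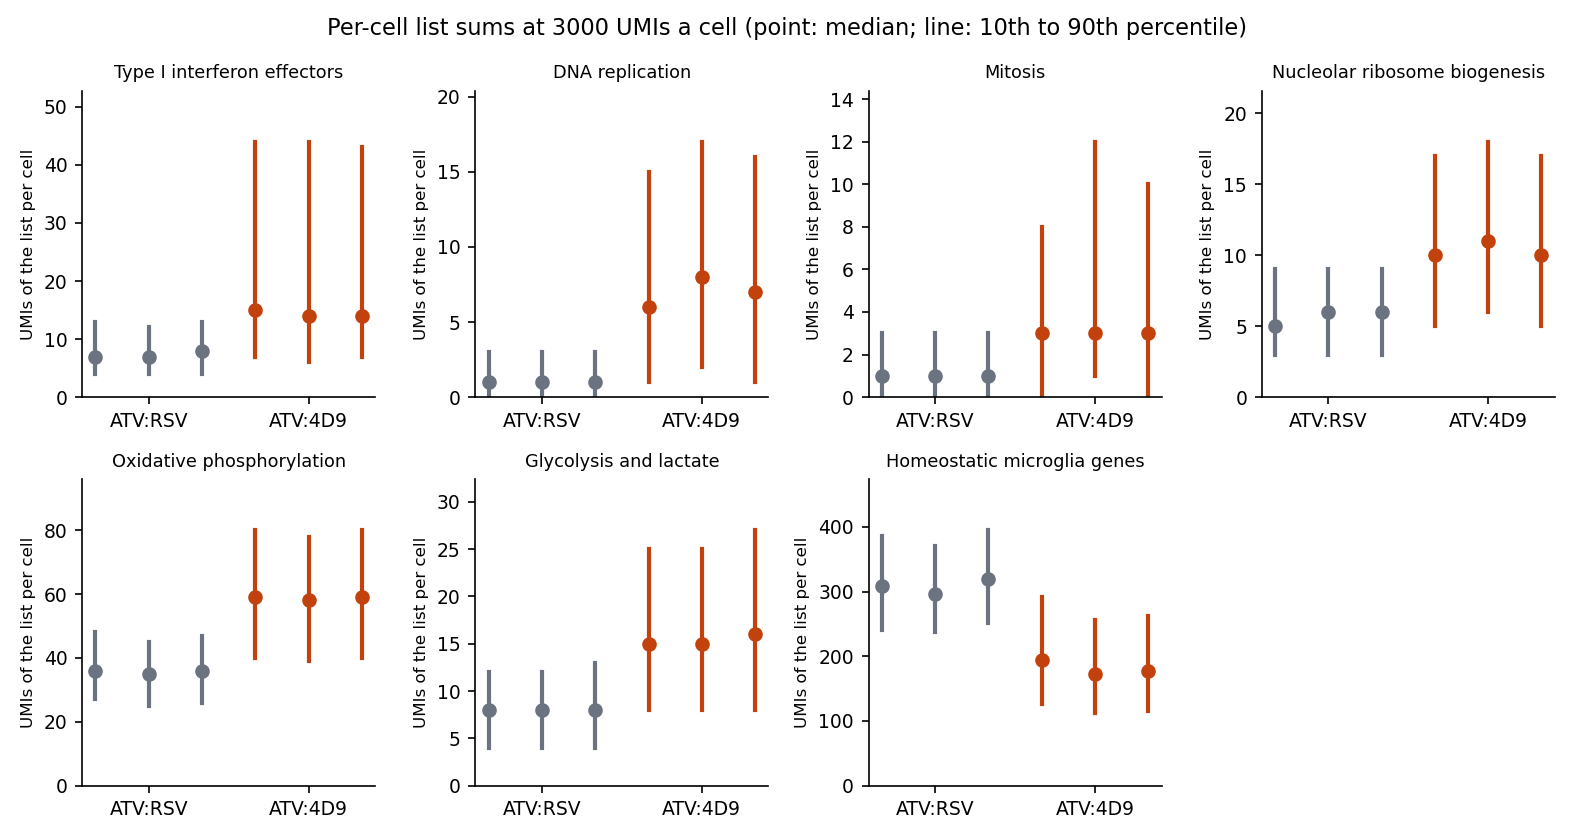
UMIs of 7 gene lists per cell in each of the 6 mice after each cell was thinned to 3000 UMIs, with the median as a point and a line from the 10th to the 90th percentile. The lines of the 2 groups overlap in all 7 lists, while the median of homeostatic genes lies at 297 to 319 in ATV:RSV and at 173 to 195 in ATV:4D9.

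Shares of cells with a UMI at this depth were taken for single genes, and they count cells in which a UMI was found, not cells that express the gene. Cxcl10 was found in 3.84, 3.32 and 2.6% of cells in the ATV:RSV mice and 48, 58 and 62.5% in the ATV:4D9 mice, and Isg15 in 4.35, 3.14 and 3.2% and 26.6, 27.9 and 30.2%. Ccl4 was found in 47.6, 52.1 and 43.8% and 81.8, 86.6 and 89%, and Ldha in 31.5, 30.5 and 29% and 58.5, 61.6 and 63.8%. Mcm5 was found in 0.767, 0.856 and 0.725% and 21.2, 24.7 and 22.2%, so a UMI of this replication gene was seen in a minority of cells at this depth. P2ry12 went from 98.9, 99 and 98.9% to 80.3, 79.5 and 79.4%. Apoe, by contrast, was found in 42.7, 44.1 and 39.99% and 45.1, 31.8 and 24.2%, and its groups overlapped (exact p = 0.4). The other named shares each reached exact p = 0.1.

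Differences within each batch were taken for 6 genes picked from 6 lists. The groups did not overlap for these 6 genes, so the sign was fixed beforehand and only the size is read. The log2 difference of ATV:4D9 minus ATV:RSV in batches 1, 2 and 3 was 4.93, 5.94 and 6.49 for Cxcl10, 4.99, 5.42 and 5.61 for Mcm5, 2.23, 2.20 and 2.25 for Pkm, 1.69, 1.54 and 1.65 for Hspa5, -1.23, -1.38 and -1.32 for P2ry12 and -0.61, -0.76 and -0.83 for Sall1. Of the 9872 genes called, 9789 had the same sign in all 3 batches and 9520 had groups that did not overlap, against 71.5% of all genes tested whose groups did not overlap. The calls came from the same mice, so neither count is a separate test, and the shared sign was not counted over all genes. Among called genes Apoe was an exception to both, at 0.18, -0.70 and -0.74.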

How the data were processed

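Single-cell libraries of 10x 3′ v3 chemistry were read from the deposited table of UMI counts. The authors mapped reads to mm10 with Cell Ranger, version 4.0.0 per the submitters' processing notes (the study's methods name other versions), and filtered and clustered cells in Seurat before deposit; how doublets were treated, and the cutoffs on cells, are not given in the sources used here, and no doublet caller was run. The deposited cell table gives the mouse of each cell and the percent of mitochondrial UMIs. Counts were summed per mouse (38985589 to 70307384 UMIs) and fitted with limma-voom (R 4.3.3, limma 3.58.1, edgeR 4.0.16) after TMM scaling and filterByExpr at a minimum count of 10 and a total of 15, over the 15 mice of 5 groups, which share 1 estimate of the spread. P-values were adjusted by Benjamini and Hochberg over the 14260 genes tested, and changes beyond 2-fold were tested with limma treat. CPM are TMM-scaled and not per gene length, so levels of different genes are not compared. DESeq2 1.42.0 and edgeR were alternatives. The fit was run on simulated counts with known fold changes in few genes, in equal numbers up and down. That setting does not cover a change of most genes, so it cannot tell how TMM scaling fares here. For single cells, each cell was thinned to 3000 UMIs and shallower cells were left out. The cells left out were 5.31, 12.3 and 6.49% in the ATV:RSV mice and 2.81, 3.06 and 3.97% in the ATV:4D9 mice.

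The labels place a mouse of each condition in every batch, so batch numbers pair the mice. Deviations from the group means correlated at 0.0453, 0.0681 and 0.206 within batches 1, 2 and 3. Replicate mice differed by more than counting noise (chi-square per degree of freedom 13.9 to 28.7), and 8 to 21 cell barcodes were shared by any 2 of the 6 libraries. Gene groups, and the genes named (in each gene group up to 4 of the highest mean CPM and 4 of the largest change, and in the whole table the 20 highest, the 20 lowest, the 15 largest gains and the 15 largest losses in CPM among called genes of at least 5 CPM whose groups did not overlap, with others listed by name), were chosen with earlier results of these data known. Promoter windows are the 250 bases before the first start listed for a symbol in RefSeq. Floors cover counting error only, and SEs come from the fit over mice. A few genes are not reported here.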

Additional observations from a re-analysis of the deposited data

How the results depend on the processing

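The batch number pairs the mice, and the fit with the batch as a replicate block gave 5111 higher and 5171 lower genes, kept 9841 of the 9872 calls in the same direction and moved no count of calls by over 1.5 times. Over all 16 alternatives the number of genes called lay between 8422 and 10649, and 653 of 832 list medians moved by less than the spread between mice. Scaling by total UMIs alone turned 31 calls to the opposite direction, with 501 in place of 253 genes beyond 2-fold downward and 11 in place of 6 lists with over 50% of members lower. It turned the list medians of MHC class II to -0.0557, fatty acid oxidation to -0.0512, lipid efflux to -0.108, iron to -0.0101, pattern recognition to -0.166, lysosome to -0.110 and p53 targets to -0.0673, as well as Ifnar2 to -0.10. Thinning each cell to 3000 UMIs left 140 genes beyond 2-fold downward in a table of 12913 genes and turned the integrin median, -0.0850 in the report, to 0.151. The integrin median was also positive with DESeq2 (0.0052) and in the 6 mice alone (0.016), and ran from -0.118 to 0.0528 as single mice were left out, positive without ATV:RSV replicate 1 and without ATV:4D9 replicate 3 (0.0429). Leaving out cells with a UMI of Mki67, Top2a, Rrm2 or Pclaf turned the median of interferon ligands, receptors and factors to 0.0237 and Cdkn2d to -0.66. The mean difference in median genes per cell, negative at 3000 UMIs, was 623.7 without thinning. Causes of these changes other than fewer cells or genes were not tested. Of 2696 values of single genes under an alternative, 35 lost their call in the same direction, all of them for Apoe, Irf8, Ifnar2, Trem2, Pttg1 and Nfkbia, Ifnar2 also lost it where its direction turned, and DESeq2 gave no adjusted p for Ccl5 and Cxcl13. Folds of genes with few control UMIs moved with the tool and with the ATV:RSV mice, as for Cxcl13 (4.21 by edgeR, 4.33 by DESeq2 and 5.31 to 8.94 without single ATV:RSV mice, in place of 6.74 on the log2 scale) and Cdc6 (6.23 to 8.39 without single ATV:RSV mice in place of 7.49).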

Other observations

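In the 5 classes of non-coding RNA with a label of their own more genes were called lower than higher in ATV:4D9, as in the lowest of 5 bins of abundance (25.2% lower and 16.3% higher). Of 153 sense intronic genes tested 49.7% were called lower and 6.54% higher, with a median log2 fold change of -0.53, and of 618 antisense genes 32.4% were lower and 14.4% higher. Long intergenic non-coding genes were lower in 37.9% and higher in 17.1% of 496, processed transcripts in 40.7% and 17.9% of 273 and bidirectional promoter transcripts in 35.1% and 15.6% of 77. Among all genes tested 34.6% were lower, more than among antisense genes. Protein-coding genes were lower in 34.3% and higher in 37.4% of 12427. Levels of these classes were not separated from reads of overlapping genes. Neat1, a nuclear non-coding RNA, was at 293, 328 and 269 CPM in the ATV:RSV mice and 299, 321 and 238 CPM in the ATV:4D9 mice, so its groups overlapped, and it did not pass the test (adjusted p = 0.635), but it was called lower under scaling by total UMIs (log2 fold change -0.30, limma-voom adjusted p = 0.0202). Malat1, another nuclear non-coding RNA, was at 25527, 26068 and 23206 against 15899, 16180 and 14351 CPM without overlap.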
